A study of Homo sapiens with 26 samples.

Results

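U2OS cells, an established human osteosarcoma line, were compared between acidic medium (pH 6.3) and neutral medium (pH 7.4) late in a 52 h course of RNA sequencing. The comparison took the libraries at 40, 44, 48 and 52 h by their labelled medium and hour, which gave 8 of the 26 libraries of the study, 4 at pH 6.3 and 4 at pH 7.4, paired by hour. The cells of every group carried Arntl::dLUC, a luciferase reporter of the clock gene ARNTL (BMAL1). Both media were DMEM with 5% serum and antibiotics, in which PIPES and HEPES (25 mM of each) replaced bicarbonate, and both held dexamethasone (0.1 µM), a glucocorticoid used to synchronise clocks in culture. Plates were sealed and kept in atmospheric CO2. The 4 hours came from the set of plates that was treated first. Each hour and pH had 1 library, so the 4 hours of a medium served as replicates. Standard errors and p-values below measure how the difference between the media spread over the hours. That spread holds change of the difference over time as well as noise.

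Extracellular acid is a feature of poorly perfused tumours. mTORC1, the kinase complex that drives protein and ribosome synthesis, is known to be restrained by acid, by amino acid shortage and by stress-induced inhibitors such as DDIT4 and the sestrins. The clock is a transcriptional loop in which ARNTL and CLOCK activate the PER, CRY and NR1D1 genes, whose products repress their activators. ATF4, translated preferentially when the initiation factor eIF2 is phosphorylated, switches on genes of amino acid uptake and synthesis, and MondoA (MLXIP) drives TXNIP and ARRDC4 in response to sugar phosphates and acid. The study's title names acid, the clock and mTOR, and the late window asks what separated the media after the first day.

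Values are FPKM (fragments of a gene relative to its transcript length in kilobases and to the library's mapped fragments) as deposited, in the order 40, 44, 48 and 52 h. Differences are pH 6.3 minus pH 7.4 on the log2(FPKM + 1) scale with their standard error, a scale on which folds of weakly expressed genes come out too small. The depth estimated for the 8 libraries was 62.7 to 108 M fragments. Transcripts of mitochondrial DNA took 13.3% to 15.2% of the FPKM at pH 6.3 and 19.3% to 22.0% at pH 7.4. The 8 libraries correlated with each other at r of 0.871 to 0.993 across genes. Of 19806 gene rows, 11822 averaged 1 FPKM or more across these 8 and were tested with limma, with the hour as a block and Benjamini-Hochberg adjustment over all of them.

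Acid changed most of the measured transcriptome. Of the 11822 genes, 3044 (25.7%) had more RNA at pH 6.3 and 3738 (31.6%) had less, by a limma adjusted p under 0.05, together 57.4%. The groups did not overlap in 2934 genes (24.8%) with every pH 6.3 library above every pH 7.4 library and in 3790 (32.1%) with every pH 6.3 library below. Changes of at least 2-fold on the log2(FPKM + 1) scale were called in 1118 genes upward and 1116 downward, and the median difference over all genes was -0.04. With scaling that leaves out mitochondrial DNA the median was -0.14, so differences of about that size depend on the scaling. Shares of called genes below are to be read against these percentages.

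Part of this difference followed the GC content of the transcripts at 2 of the 4 hours. The correlation across 11800 genes between GC content and the difference was -0.01 at 40 h and -0.02 at 52 h, against 0.36 at 44 h and 0.51 at 48 h. In the 20% of genes richest in GC (57.2% to 72.0%) the median difference was -0.14 at 40 h, 0.52 at 44 h, 0.94 at 48 h and -0.19 at 52 h. In the poorest 20% (30.2% to 40.6%) it was -0.11, -0.34, -0.39 and -0.11 at these hours. The correlation between GC content and a library's deviation from the mean of the 8 was -0.15, 0.29, 0.45 and 0.23 at pH 6.3 and -0.12, -0.41, -0.54 and 0.30 at pH 7.4. Leaving out the 44 and 48 h pairs gave 2713 higher and 4018 lower genes, and 5602 of the 6782 calls were kept. Of the calls, 3011 were higher and 3685 lower at 4 of 4 hours, so this refit could not turn their direction. It rests on the 40 and 52 h pairs alone, with few residual degrees of freedom. Several genes described below are in the GC-richest group and had a more positive difference at both 44 and 48 h than at 40 and 52 h. They are ASIC1, ASIC3, CCDC9, CDKN1A, CHAC1, DBP, DDIT4, FARSA, FDXR, ICAM3, IGF2, KRT75, MLXIP, NR1D1, PER1, RPLP2, SDF2L1, SESN2, TLN1 and TP53I3, and the part of the GC trend in their values was not tested. Genes outside this group can show the same hours. In the next 20% of genes (50.7% to 57.1%) the medians were -0.07, 0.18, 0.37 and -0.16. MT2A, MRPL2, NDRG1 and PSMC4 are examples there with a more positive difference at 44 and 48 h.

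**Figure D1:**
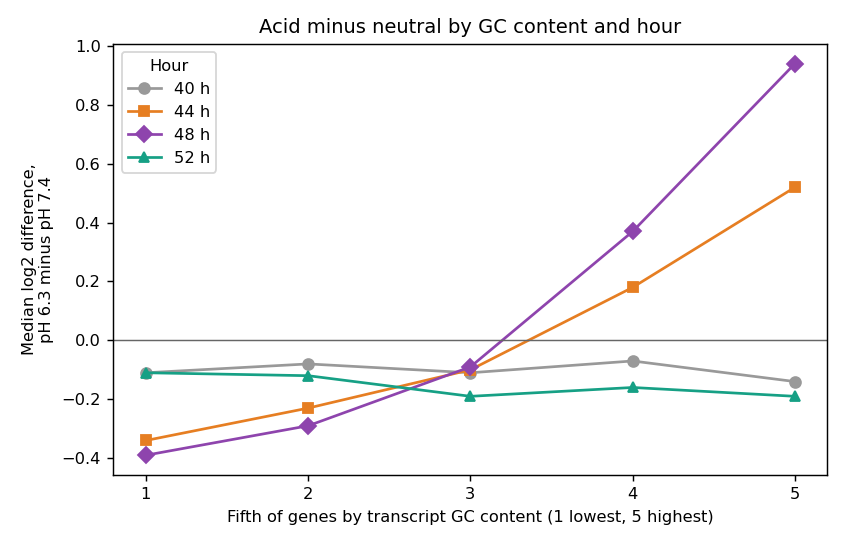
Median difference (log2, pH 6.3 minus pH 7.4, y axis) in 5 equal groups of genes ordered by transcript GC content (x axis), with 1 line per hour. The lines for 44 and 48 h climb to 0.52 and 0.94 in the group richest in GC, while those for 40 and 52 h stay between -0.07 and -0.19.

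TXNIP, the thioredoxin-interacting protein that limits glucose uptake and is the best known MondoA target, had the largest increase. Its level was 250, 256, 249 and 271 FPKM at pH 6.3 and 4.89, 4.08, 2.94 and 3.04 FPKM at pH 7.4. The acid libraries varied little and stood far above every neutral library, a difference of 5.78 ± 0.13 (limma adjusted p = 9.5e-05). ARRDC4, its close arrestin-domain relative and also a MondoA target, had 12.6, 11.3, 11.2 and 13.3 FPKM at pH 6.3, against 0.897, 0.886, 1.12 and 0.745 FPKM at pH 7.4, a difference of 2.77 ± 0.13 (limma adjusted p = 0.00017). All 6 tested genes of the thioredoxin-interacting and arrestin-domain list rose (median 1.36, against -0.04 over all genes), 5 of them with scaling without mitochondrial DNA and 4 without the 44 and 48 h pairs. MondoA itself (MLXIP), named here after its values were seen, was among them at 1.45.

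The start region of TXNIP is shown because this gene led the comparison. RefSeq (GRCh38.p14) places it on the minus strand at chr1:145996530-145996829, from 250 bases before to 50 bases after the start. Capitals mark the 2 matches to CCAAT, the box bound by NF-Y, of which the first is on the opposite strand.

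TXNIP: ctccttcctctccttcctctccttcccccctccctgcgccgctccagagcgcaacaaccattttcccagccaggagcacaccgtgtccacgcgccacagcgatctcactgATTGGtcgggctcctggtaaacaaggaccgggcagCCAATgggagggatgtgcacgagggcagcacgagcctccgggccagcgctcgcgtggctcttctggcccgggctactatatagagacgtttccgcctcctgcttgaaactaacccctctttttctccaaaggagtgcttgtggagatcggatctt

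CCAAT on either strand was found in 43.1% of the 898 promoters of genes that rose at least 2-fold, 36.3% of the 892 that fell as much, 37% of the 9754 promoters of tested genes and 34.6% of all 35116 promoters of the same length. Motifs were searched on both strands, and a match is a description of the letters.

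**Figure D2:**
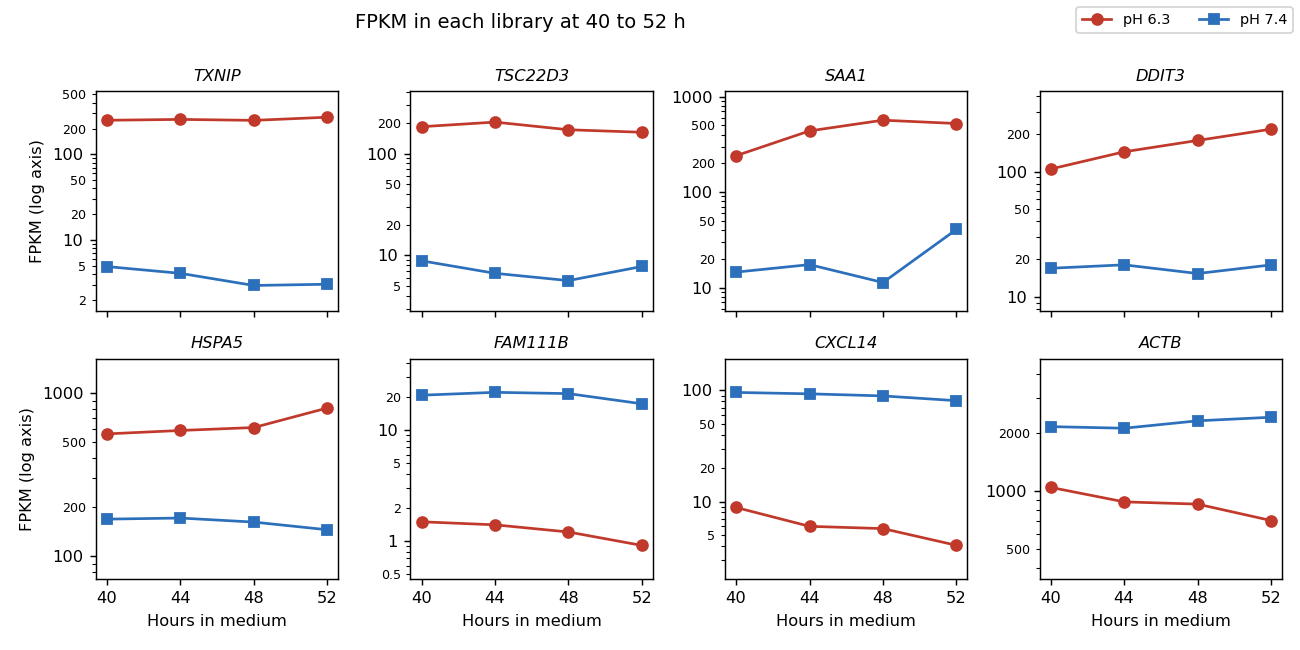
FPKM on a log axis against hours in medium (40 to 52 h) for 8 genes, with red circles for pH 6.3 and blue squares for pH 7.4, 1 library per point. TXNIP stays at 249 to 271 at pH 6.3 and 2.94 to 4.89 at pH 7.4, and in no panel do the media overlap.

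Other genes with the largest increases came from different systems. TSC22D3 (GILZ), a glucocorticoid-induced regulator, had 184, 204, 171 and 162 FPKM at pH 6.3, against 8.86, 6.68, 5.67 and 7.79 FPKM at pH 7.4 (4.47 ± 0.13). NPRL2, a subunit of the GATOR1 complex that restrains mTORC1 when amino acids are short, had 114, 164, 164 and 164 FPKM at pH 6.3, against 15.7, 14.9, 10.2 and 19.9 FPKM at pH 7.4 (3.25 ± 0.19). Its annotated span overlaps CYB561D2 on the opposite strand, and whether the counting used strand was not given in the sources. The secreted protease inhibitor SLPI differed by 3.23 ± 0.16, the sulfatase SULF1 by 3.08 ± 0.20 and the adhesion molecule ICAM3 by 3.04 ± 0.27. CPNE7, a calcium-dependent membrane-binding copine, had 5.88, 12.1, 14.4 and 17.3 FPKM at pH 6.3 and at most 0.164 FPKM at pH 7.4. CCDC9 (GC 66.2%) rose by 3.15 ± 0.30, and all limma adjusted p in these sentences lay between 0.00014 and 0.0005. Among the 12 largest increases by the rule, a row named MALAT1 had no identifier in the annotation and is not described.

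The largest decreases included genes of adhesion, matrix and signalling. CXCL14, a chemokine, had 8.87, 6, 5.72 and 4.05 FPKM at pH 6.3 and 96, 93.3, 89.3 and 81 FPKM at pH 7.4. Every acid library was far below the neutral library of its hour, a difference of -3.70 ± 0.14 (limma adjusted p = 0.00014). KRT75, a keratin, differed by -3.72 ± 0.22 and FMNL2, a formin of the actin cytoskeleton, by -3.55 ± 0.13. MAP2K6, a kinase that activates p38, differed by -3.30 ± 0.11, the transglutaminase subunit F13A1 by -3.20 ± 0.11 and the fatty acid binding protein FABP7 by -3.02 ± 0.18. NCAM1, GLIPR1 and the sugar transporter SLC2A12 each differed by -2.85. PXDN, a peroxidase that crosslinks collagen IV, had 27.7, 25.2, 22.4 and 17.3 FPKM at pH 6.3, against 171, 157, 186 and 167 FPKM at pH 7.4 (-2.84 ± 0.13), and the caveolar protein gene SDPR (CAVIN2) differed by -2.83 ± 0.17. In all of these genes the groups did not overlap.

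Genes under ATF4 moved together. Of 33 tested ATF4 targets 31 (93.9%) rose and none fell, with a median of 1.82, and 30 of the 33 had every acid library above every neutral one. DDIT3 (CHOP), a transcription factor of prolonged stress, had 105, 144, 177 and 218 FPKM at pH 6.3, against 16.9, 18, 15.4 and 18 FPKM at pH 7.4. The acid values were highest at 52 h while the neutral ones stayed within 15.4 to 18, and the difference was 3.11 ± 0.18 (limma adjusted p = 0.00018). DDIT3 overlaps MARS on the opposite strand, and MARS also rose, by 1.42. ATF3, a stress-induced repressor, had 23.3, 36.3, 35.5 and 48.7 FPKM at pH 6.3, against 3.73, 3.54, 3.44 and 4.19 FPKM at pH 7.4 (2.92 ± 0.17). GDF15, a secreted stress cytokine, had 9.62, 15.4, 26.4 and 26.6 FPKM at pH 6.3, against 1.51, 1.26, 0.944 and 2.01 FPKM at pH 7.4 (2.99 ± 0.27). SLC7A11, the cystine carrier, rose by 2.05 ± 0.17. The counts were 30 to 31 of 33 under GC correction, quantile normalization, scaling without mitochondrial DNA and without the 44 and 48 h pairs, with medians of 1.65 to 1.79.

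The cytosolic aminoacyl-tRNA synthetases, which load amino acids onto tRNA and include known ATF4 targets, followed in part. Of 20 tested, 14 rose and 2 fell (median 0.77). YARS, for tyrosine, had 190, 187, 199 and 208 FPKM at pH 6.3, against 72.9, 69.2, 67.2 and 76.8 FPKM at pH 7.4 (1.44 ± 0.07). FARSA, the alpha subunit for phenylalanine, rose by 1.56 ± 0.29, whereas its beta subunit FARSB fell by 0.57 ± 0.12 and DARS, for aspartate, fell by 0.65 ± 0.09. FARSA is rich in GC (60.3%) and its neutral values of 5.22, 3.36, 3.15 and 8.95 FPKM were lowest at 44 and 48 h.

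The start region of ATF3 is shown for the ATF4 element. It lies on the plus strand at chr1:212565157-212565456, and capitals mark a match to TGATGNAA, the C/EBP-ATF response element (CARE) bound by ATF4.

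ATF3: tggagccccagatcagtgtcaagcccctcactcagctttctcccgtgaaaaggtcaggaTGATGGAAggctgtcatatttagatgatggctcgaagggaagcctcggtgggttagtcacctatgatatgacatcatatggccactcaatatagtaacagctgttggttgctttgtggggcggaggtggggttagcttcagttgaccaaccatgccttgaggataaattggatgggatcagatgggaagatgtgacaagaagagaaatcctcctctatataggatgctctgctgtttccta

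This element was in 6 of 26 promoters of ATF4 targets (23.1%) and 6 of 16 promoters of synthetases (37.5%). It was in 1.7% of the 9754 promoters of tested genes and 3.62% of all promoters. Promoters of all genes that rose at least 2-fold held it in 2.9%, and those of genes that fell as much in 2.35%. The 6 ATF4 targets with a match were ASNS, ATF3, CHAC1, FGF21, SLC3A2 and SLC7A1, and each of them rose, by 0.67 to 2.92. As 31 of the 33 tested ATF4 targets rose, this does not set targets with a match apart. Among the 6 synthetases with a match, AARS, CARS, IARS, MARS and NARS rose by 0.51 to 1.42 and TARS, at 0.20, did not pass.

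Endoplasmic reticulum stress genes rose in part. Of 25 tested, 14 rose, 1 fell and 10 did not pass (median 0.68). HSPA5 (BiP), the main chaperone of the endoplasmic reticulum, had 562, 590, 615 and 811 FPKM at pH 6.3, against 169, 171, 162 and 145 FPKM at pH 7.4 (1.98 ± 0.14, limma adjusted p = 0.00023). HERPUD1, a component of the degradation machinery of this compartment, had 602, 739, 813 and 1020 FPKM at pH 6.3, against 129, 122, 98.6 and 136 FPKM at pH 7.4 (2.68 ± 0.14). Both were highest in the acid library of 52 h. SDF2L1, a chaperone cofactor, rose by 2.14 ± 0.40, with neutral values of 4.56, 2.5, 1.4 and 6.59 FPKM that were lowest at 44 and 48 h, and its GC content was 65.5%. The disulfide isomerase PDIA6 was lower by 0.29 ± 0.08 (limma adjusted p = 0.018), a call that was lost under GC correction and without the 44 h or the 52 h pair.

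HSPA5 carries the element that defines this response, so its start region is shown. It lies on the minus strand at chr9:125241294-125241593, and capitals mark the CCAAT and CCACG ends of an endoplasmic reticulum stress element (ERSE), which are 9 bases apart and are bound by NF-Y and ATF6.

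HSPA5: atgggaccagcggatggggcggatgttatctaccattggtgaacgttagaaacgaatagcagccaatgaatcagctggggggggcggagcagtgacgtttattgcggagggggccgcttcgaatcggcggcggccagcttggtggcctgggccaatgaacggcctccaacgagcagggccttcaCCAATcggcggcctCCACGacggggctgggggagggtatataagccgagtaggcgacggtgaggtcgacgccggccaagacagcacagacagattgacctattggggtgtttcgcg

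The exact element was in 7 of 24 promoters of the list (29.2%) and in 0.0769% of all promoters. HSPA5, HSP90B1, XBP1 and ERO1LB among these 7 rose, by 0.87 to 1.98, while CRELD2 (0.68), CALR (0.08) and CANX (-0.17) did not pass. Of 14 genes of heat shock proteins and chaperones outside the endoplasmic reticulum none rose and 6 fell. HSPE1, the mitochondrial chaperonin cofactor, had 143, 119, 121 and 106 FPKM at pH 6.3, against 246, 251, 276 and 246 FPKM at pH 7.4 (-1.06 ± 0.10), and HSP90AA1 fell by 0.86 ± 0.09.

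**Figure D3:**
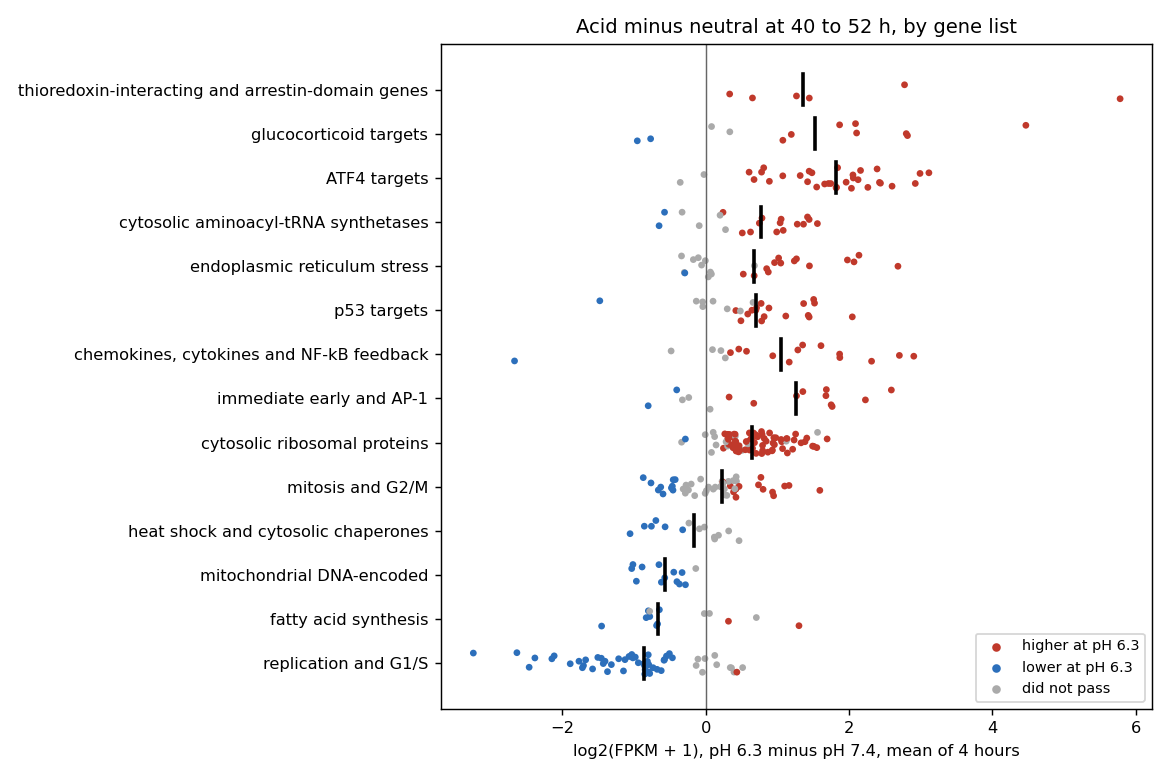
Difference of each tested gene (log2, pH 6.3 minus pH 7.4, x axis) in 14 gene lists (rows), with red points for genes higher at pH 6.3, blue for lower and grey for those that did not pass, and a black bar at the list median. ATF4 targets centre on 1.82 and replication genes on -0.86.

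Both media held dexamethasone, and targets of the glucocorticoid receptor still differed, in both directions. Of 12 tested, 8 rose and 2 fell (median 1.53). DUSP1, a phosphatase that shuts off p38 and JNK, had 122, 132, 129 and 122 FPKM at pH 6.3, against 18.9, 16, 15.4 and 18.1 FPKM at pH 7.4 (2.81 ± 0.10), next to TSC22D3 above. FKBP5, the receptor's cochaperone, had 14, 11.3, 10.5 and 8.13 FPKM at pH 6.3, against 20.9, 20.1, 18.5 and 17.2 FPKM at pH 7.4 (-0.77 ± 0.11), and the kinase SGK1 fell by 0.95 ± 0.15. No exact palindrome of the receptor (AGAACA and TGTTCT 3 bases apart) was in the 10 promoters of this list that were matched. These letters were in 1 of all 35116 promoters (0.00285%) and in none of the 9754 of tested genes. Their absence from the 10 windows therefore says nothing particular about this list.

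Of 10 acute phase genes 5 rose and 2 fell (median 0.43), and 3 rose without the 52 h pair. Without a filter on low genes 6 of 15 rose and 2 fell (median 0.2). SAA1 and SAA2, the acute phase serum amyloid genes, are close copies, and the split of reads between them is uncertain. SAA1 had 240, 437, 566 and 522 FPKM at pH 6.3, against 14.5, 17.4, 11.3 and 40.6 FPKM at pH 7.4 (4.43 ± 0.30), and SAA2 had 27.9, 58.5, 71.9 and 67.7 FPKM at pH 6.3, against 0.505, 0.364, 0.83 and 0.696 FPKM at pH 7.4 (5.09 ± 0.22). The acid libraries at 40 h were the lowest for both. C3, the central complement protein, fell by 1.07 ± 0.17, with 16.6, 15.4, 18.4 and 26.9 FPKM at pH 6.3, against 41.3, 39.8, 25.6 and 65 FPKM at pH 7.4. Of 18 tested chemokine, cytokine and NF-kB feedback genes 13 rose and 1 fell (median 1.05). Without a filter on low genes 14 of 32 rose and 3 fell (median 0.15). CCL20 rose by 2.90 ± 0.18 and CXCL8 by 2.70 ± 0.20, with 27, 36.9, 42.3 and 46.8 FPKM at pH 6.3, against 4.05, 6.54, 6.3 and 3.41 FPKM at pH 7.4. The 1 of the 18 that fell was CCL2, a monocyte chemokine, with 40, 35.3, 41.6 and 33.2 FPKM at pH 6.3 and 218, 237, 262 and 257 FPKM at pH 7.4 (-2.67 ± 0.10, limma adjusted p = 0.00016). Among 15 immediate early and AP-1 genes 10 rose and 2 fell (median 1.27), and 4 fell under GC correction. Without a filter on low genes 11 of 20 rose (median 0.39), and with a filter of 5 FPKM 5 of 10 (median 0.19). The orphan receptor NR4A2 rose by 2.59 ± 0.18, whereas KLF6 fell by 0.80 ± 0.09. Metallothioneins, which bind zinc, are another family of close copies: MT2A had 603, 1087, 1104 and 813 FPKM at pH 6.3, against 216, 157, 160 and 312 FPKM at pH 7.4 (2.10 ± 0.28).

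Clock genes differed between the media. Of 16 tested core clock genes 8 rose, 3 fell and 5 did not pass (median 0.82). PER1, a repressor of the loop, had 17, 35.1, 41.7 and 35.7 FPKM at pH 6.3, against 4.18, 3.13, 1.87 and 6.11 FPKM at pH 7.4 (2.80 ± 0.34, limma adjusted p = 0.001). NR1D1 (REV-ERB alpha), which represses ARNTL, had 9.52, 15.5, 17.6 and 14.8 FPKM at pH 6.3, against 1.11, 1.01, 1.61 and 9.48 FPKM at pH 7.4 (2.19 ± 0.40, limma adjusted p = 0.0049). The neutral library of 52 h stood above the other 3 neutral ones and just under the lowest acid value. PER2 had 1.47, 2.08, 2.04 and 1.65 FPKM at pH 6.3, against 1.07, 0.499, 0.266 and 0.345 FPKM at pH 7.4 (0.89 ± 0.19, limma adjusted p = 0.0082), a call that was lost without the 44 and 48 h pairs and in the fit of all 26 libraries. DBP, an output gene of the loop, had 2.86, 4.81, 5.5 and 3.69 FPKM at pH 6.3, against 4.68, 3.79, 2.87 and 6.55 FPKM at pH 7.4. The media crossed over the hours, and the mean difference of -0.06 ± 0.26 did not pass (limma adjusted p = 0.87). Without the 44 and 48 h pairs DBP was lower at pH 6.3, by 0.62 on the log2 scale, and passed.

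The activators of the loop were on the other side. ARNTL had 15.4, 16, 11 and 20 FPKM at pH 6.3, against 28.6, 33.1, 36.4 and 19.8 FPKM at pH 7.4. At 52 h the media were level, and the difference was -0.87 ± 0.25 (limma adjusted p = 0.027). Its call was lost without the 40 h or the 44 h pair and without the 44 and 48 h pairs. The fit without a filter on low genes and that of all 26 libraries lost it too. NPAS2, a partner of ARNTL, had 57.1, 46.9, 40.9 and 41.4 FPKM at pH 6.3, against 65.1, 94.3, 105 and 76.8 FPKM at pH 7.4 (-0.85 ± 0.19), and CLOCK fell by 0.61 ± 0.11. PER1, NR1D1 and DBP are rich in GC (62.7%, 59.5% and 57.8%), and ARNTL and CLOCK are not (43.0% and 37.2%), so the sides of the loop differ in the property that the 44 and 48 h libraries followed, and its part in these values was not tested. At 40 h, where the difference had no GC trend, PER1 was higher at pH 6.3 by 1.80, NR1D1 by 2.32 and ARNTL lower by 0.85. At 52 h, which had no GC trend either, the differences were 2.37 for PER1, 0.59 for NR1D1 and 0.01 for ARNTL.

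**Figure D4:**
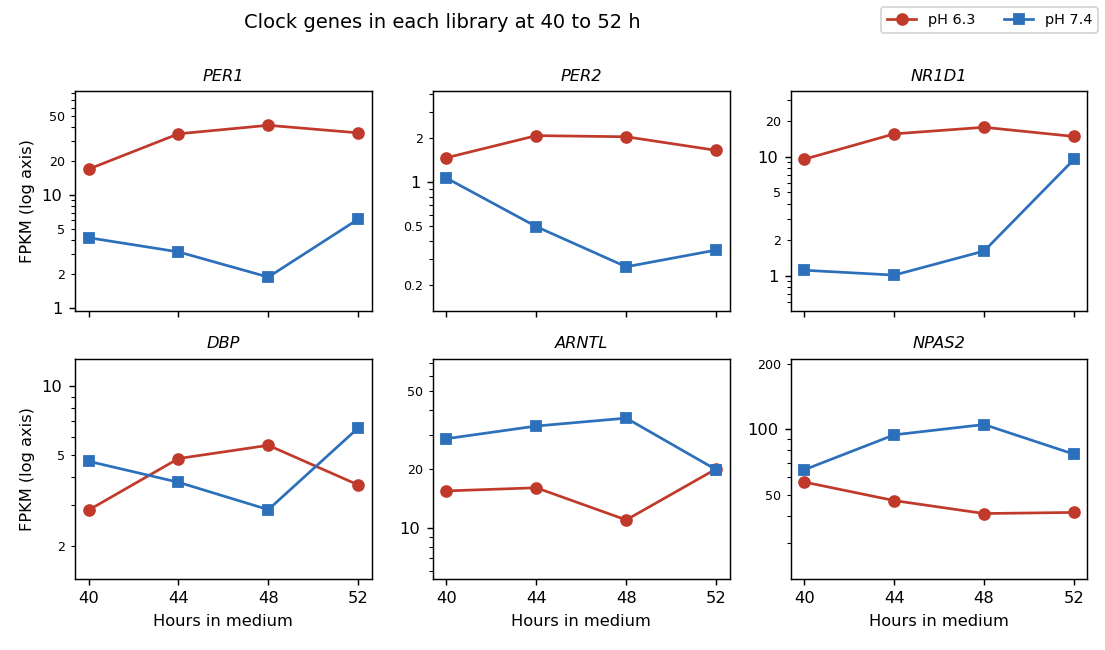
FPKM on a log axis against hours in medium for 6 clock genes, with red circles for pH 6.3 and blue squares for pH 7.4, 1 library per point. NR1D1 at pH 7.4 is 1.01 to 1.61 until 48 h and 9.48 at 52 h, and the ARNTL values of the media meet at 52 h.

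The start region of PER1 is shown because an E-box is the site through which ARNTL and CLOCK act. It lies on the minus strand at chr17:8152355-8152654, with the match to CACGTG in capitals.

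PER1: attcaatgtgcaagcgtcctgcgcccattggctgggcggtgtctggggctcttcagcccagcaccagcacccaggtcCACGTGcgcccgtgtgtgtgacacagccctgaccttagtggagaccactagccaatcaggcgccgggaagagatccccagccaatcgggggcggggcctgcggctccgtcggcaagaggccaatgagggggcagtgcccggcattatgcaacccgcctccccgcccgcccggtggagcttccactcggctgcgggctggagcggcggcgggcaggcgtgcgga

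CACGTG was in 4 of 16 core clock promoters (25%), 11.5% of promoters of genes that rose at least 2-fold, 13.1% of those that fell as much, 10.4% of promoters of tested genes and 7.26% of all promoters.

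DNA replication genes fell as a group. Of 54 tested genes of replication and the G1/S transition 43 (79.6%) fell, 1 rose and 10 did not pass (median -0.86), and 42 had every acid library below every neutral one. FAM111B, a protease linked to replication, had 1.49, 1.4, 1.21 and 0.911 FPKM at pH 6.3, against 20.6, 21.9, 21.3 and 17.3 FPKM at pH 7.4 (-3.24 ± 0.11, limma adjusted p = 0.00014). HELLS, a chromatin remodeller of S phase, had 1.73, 1.77, 1.95 and 1.29 FPKM at pH 6.3, against 15.2, 18.2, 14.3 and 14.9 FPKM at pH 7.4 (-2.63 ± 0.13). The 1 gene called higher, ORC1, of the origin recognition complex, differed by 0.43 ± 0.12. Its call was lost without the 44 h or the 48 h pair, without both and in the fit of all 26 libraries. The list's median was below 0 at all hours, at -0.84, -0.83, -0.95 and -1.10, and 43 to 46 genes were lower under GC correction, quantile normalization, scaling without mitochondrial DNA and without the 44 and 48 h pairs.

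HELLS is shown for the sites of E2F, the factor family that switches on S phase genes. Its start region lies on the plus strand at chr10:94545538-94545837. Capitals mark matches to TTTCGCGC, TTTCCCGC or TTTGGCGC on either strand.

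HELLS: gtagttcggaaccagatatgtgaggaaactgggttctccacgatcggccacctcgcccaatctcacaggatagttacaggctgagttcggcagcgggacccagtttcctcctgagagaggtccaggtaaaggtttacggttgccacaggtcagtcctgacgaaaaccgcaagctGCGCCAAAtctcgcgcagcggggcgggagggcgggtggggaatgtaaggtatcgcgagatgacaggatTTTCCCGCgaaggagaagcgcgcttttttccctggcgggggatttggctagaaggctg

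These E2F sites were in 25 of 45 promoters of the list (55.6%), against 4.84% of promoters of tested genes and 2.74% of all promoters. They were in 5.61% of promoters of all genes that fell at least 2-fold and in 4.01% of those that rose as much.

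Regulators of the G1 phase changed in both directions. CDKN1A (p21), an inhibitor of cyclin-dependent kinases and a p53 target, had 146, 190, 205 and 188 FPKM at pH 6.3, against 41.7, 39.8, 35 and 59.2 FPKM at pH 7.4 (2.04 ± 0.16). CCND1 (cyclin D1) had 9.23, 8.4, 9.27 and 7 FPKM at pH 6.3, against 23.8, 25.6, 26.6 and 27.8 FPKM at pH 7.4 (-1.51 ± 0.13), and the pocket protein RBL1 (p107) fell by 1.84 ± 0.11. Of 25 p53 targets 17 rose and 1 fell (median 0.70). FDXR rose by 1.52 ± 0.26, and TP53I3 fell by 1.48 ± 0.16. MYC rose by 0.88 ± 0.11, with 15.4, 17.3, 21.1 and 21.2 FPKM at pH 6.3, against 9.15, 8.7, 9.31 and 11.6 FPKM at pH 7.4.

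Mitotic genes did not follow replication genes. Of 49 tested G2/M genes 14 rose (28.6%), 10 fell (20.4%) and 25 did not pass (median 0.23), against 25.7% and 31.6% of all genes. AURKA, the centrosomal Aurora kinase, had 159, 172, 136 and 122 FPKM at pH 6.3, against 64, 63.3, 63.9 and 67.6 FPKM at pH 7.4 (1.16 ± 0.11). CDK1, the mitotic kinase, had 92.6, 77.3, 64.5 and 58.1 FPKM at pH 6.3, against 132, 146, 144 and 112 FPKM at pH 7.4 (-0.87 ± 0.12), and the cytokinesis scaffold ANLN fell by 0.76 ± 0.11. UBE2S, a ubiquitin-conjugating enzyme of mitosis, rose by 1.59 ± 0.45, a call that was lost without the 44 h pair and without a filter on low genes. Under GC correction 26 mitotic genes were higher and 8 lower, and without the 44 h pair 7 and 7.

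Ribosomal protein genes rose and transcripts of mitochondrial DNA fell. Among the 82 genes of cytosolic ribosomal proteins 68 rose and 1 fell (median 0.64), and without the 44 h pair 44 rose. Their median was 0.41 at 40 h, 0.76 at 44 h, 1.02 at 48 h and 0.39 at 52 h, and without the 44 and 48 h pairs it was 0.40 with 71 genes higher and 2 lower. RPLP2 (GC 60.6%) rose by 1.69 ± 0.47, a call that was lost without the 44 h pair and without a filter on low genes. RPSA was lower by 0.28 ± 0.10 (limma adjusted p = 0.043). That call was lost under GC correction, without a filter on low genes and without the 40 h, the 44 h or the 52 h pair. These genes have many processed copies in the genome, and how the counting split their reads is not known. Of 13 protein genes of mitochondrial DNA 12 fell and none rose (median -0.57). MT-CYB, of respiratory complex III, had 2347, 2365, 2535 and 2498 FPKM at pH 6.3, against 5016, 4821, 4978 and 5125 FPKM at pH 7.4 (-1.03 ± 0.07), and MT-CO3, of complex IV, fell by 1.02 ± 0.07. Quantile normalization left 6 of the 13 lower and called 1 higher, and without a filter on low genes 6 were lower. Of 75 nuclear subunits of the respiratory chain 24 were higher (32%) and 22 lower (29.3%), against 25.7% and 31.6% of all genes. Of 77 mitochondrial ribosomal proteins 16 were higher (20.8%) and 18 lower (23.4%). Without the 44 h pair 14 respiratory subunits were lower, and 8 mitochondrial ribosomal proteins were higher and 11 lower. Of the mitochondrial ribosomal proteins, MRPL1 fell by 1.85 ± 0.11 and MRPL2 rose by 1.98 ± 0.22.

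Genes at the entry of pyruvate into mitochondria changed on both sides. MPC1, a subunit of the mitochondrial pyruvate carrier, had 125, 130, 129 and 138 FPKM at pH 6.3, against 28.9, 31.2, 32.3 and 26.1 FPKM at pH 7.4 (2.10 ± 0.10). PDK4, a kinase that turns off pyruvate dehydrogenase, had 9.28, 9.06, 6.88 and 7.78 FPKM at pH 6.3, against 2.39, 1.65, 2.68 and 1.74 FPKM at pH 7.4 (1.58 ± 0.16). Its relative PDK3 fell by 0.98 ± 0.12, and DLD, the E3 subunit of the dehydrogenase, by 1.17 ± 0.12. Of 22 glycolysis genes 4 rose (18.2%) and 6 fell (27.3%), under the shares of 25.7% and 31.6% over all genes. Their median of 0.06 was -0.33 without the 44 and 48 h pairs. HK2, a hexokinase, rose by 1.81 ± 0.14, and PFKP, a phosphofructokinase, fell by 1.34 ± 0.10. Fatty acid synthesis genes were mostly lower, with 7 of 13 down and 2 up (median -0.67). ELOVL6, an elongase of saturated fatty acids, fell by 1.45 ± 0.14, whereas ELOVL5, of polyunsaturated ones, had 364, 345, 329 and 349 FPKM at pH 6.3, against 138, 141, 151 and 130 FPKM at pH 7.4 (1.30 ± 0.08). Of 25 cholesterol synthesis genes 5 rose (20%) and 7 fell (28%), again under the shares over all genes. The number lower was 12 without the 44 and 48 h pairs and 4 without the 44 h pair. INSIG2, which holds back SREBP, the activator of the pathway, rose by 1.37 ± 0.12.

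The mTORC1 pathway, which the study's title names, had shares of called genes near those over all genes. Of its 38 tested genes 10 rose and 10 fell (26.3% each), against 25.7% and 31.6% of all genes, and 6 fell without the 40 h pair. Its median of 0.06 was -0.04 with scaling without mitochondrial DNA. Inhibitors of the complex moved both ways. Beside NPRL2, the sestrin SESN2 had 8.22, 11.9, 14.3 and 12.9 FPKM at pH 6.3, against 3.91, 3.09, 2.73 and 5.17 FPKM at pH 7.4 (1.44 ± 0.20), and DDIT4 (REDD1) had 53.7, 61.3, 58.2 and 52.5 FPKM at pH 6.3, against 27.4, 21.7, 24.2 and 32.8 FPKM at pH 7.4 (1.07 ± 0.14). Another sestrin, SESN3, had 7.32, 6.88, 6.38 and 6.32 FPKM at pH 6.3, against 12, 12, 10.6 and 9.16 FPKM at pH 7.4, and fell by 0.62 ± 0.11. EIF4EBP2, a repressor of cap-dependent translation that mTORC1 turns off, fell by 1.45 ± 0.12. FLCN, which activates mTORC1 on lysosomes, was lower by 0.82 ± 0.20, a call that was lost without the 40 h, the 44 h or the 52 h pair. Of 14 FOXO factors and targets 9 rose and 1 fell (median 1.08), with TXNIP among them. Without a filter on low genes 9 of 17 rose and 1 fell (median 0.38). BCL6, a transcriptional repressor, had 93.2, 131, 116 and 141 FPKM at pH 6.3, against 21.3, 16.4, 18.9 and 22.7 FPKM at pH 7.4 (2.54 ± 0.14).

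Genes that handle protons, bicarbonate and lactate were mostly not called, with 2 of 16 higher and 4 lower, or 4 and 7 under GC correction. The vesicular exchanger SLC9A7 rose by 1.12 ± 0.11, the carbonic anhydrase CA12 fell by 1.24 ± 0.13 and the acid-sensing channel ASIC1 fell by 1.64 ± 0.19. Another channel of that family, ASIC3, rose by 1.52 ± 0.25. Of 46 genes of lysosomes, the V-ATPase and autophagy 12 rose (26.1%) and 18 fell (39.1%), against 25.7% and 31.6% of all genes. Their median of 0.14 was -0.22 without the 44 and 48 h pairs. The protease CTSK rose by 1.33 ± 0.19. Of 24 hypoxia-inducible genes 13 rose and 4 fell (median 0.49), or 2 fell without the 44 h or the 48 h pair. The stress-responsive gene NDRG1 rose, with a difference of 1.86 ± 0.18.

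None of 10 housekeeping genes rose and 7 fell (median -0.53). Of 28 actin and SRF genes 1 rose (3.57%) and 10 fell (35.7%), against 25.7% and 31.6% of all genes (median -0.27). Without the 48 h pair 15 fell, and without the 44 and 48 h pairs 19. ACTB had 1042, 877, 854 and 702 FPKM at pH 6.3, against 2146, 2105, 2299 and 2399 FPKM at pH 7.4 (-1.38 ± 0.12), and the nonmuscle myosin gene MYH9 fell by 1.48 ± 0.14. TLN1 (talin), which links integrins to actin, rose by 0.78 ± 0.23, a call that was lost without the 44 h pair and without a filter on low genes. It was also lost without the 44 and 48 h pairs, where the difference was 0.27. Of 32 matrix genes 6 were higher (18.8%) and 11 lower (34.4%), against 25.7% and 31.6% of all genes. Without the 48 h pair 17 were lower, and without the 44 and 48 h pairs 21. The proteoglycan gene LUM had 47, 34.9, 33.6 and 34.7 FPKM at pH 6.3, against 146, 163, 166 and 115 FPKM at pH 7.4 (-1.95 ± 0.14), and LOX, which crosslinks collagen, had 34.1, 35, 33.6 and 38.1 FPKM at pH 6.3, against 9.02, 9.46, 9.34 and 8.71 FPKM at pH 7.4 (1.84 ± 0.10).

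The labelled cell type was checked against markers. The 13 mesenchymal and osteosarcoma markers summed to 2772 to 3321 FPKM at pH 6.3 and 4518 to 5286 FPKM at pH 7.4, with 1 of the 11 tested higher (CD44, 0.49 ± 0.09, not called in the fit of all 26 libraries) and 4 lower, or 7 with scaling without mitochondrial DNA. FN1 held much of these sums, with means of 1510 FPKM at pH 6.3 and 2930 FPKM at pH 7.4. COL1A2 had means of 1.09 and 0.471 FPKM and NT5E of 0.0907 and 0.0115 FPKM in these media. The 12 epithelial markers summed to 8.22 to 10.6 FPKM at pH 6.3 and 14.6 to 19.6 FPKM at pH 7.4. KRT19, KRT20 and CLDN3 stayed under 0.1 FPKM in all 8 libraries. At pH 6.3 and 7.4, EPCAM averaged 2.73 and 6.53, CLDN4 1.47 and 4.00, OCLN 1.44 and 3.35 and ESRP1 1.63 and 0.187 FPKM. Of the 4 epithelial markers tested 3 fell and none rose. The 12 leukocyte markers summed to 10.5 to 19.6 FPKM at pH 6.3 and 32.5 to 42.1 FPKM at pH 7.4, while CD3E and CD79A stayed under 0.1 FPKM. LCP1, an actin bundler, had 6.47, 6.57, 8.35 and 7.76 FPKM at pH 6.3, against 29.4, 29.6, 39.8 and 28.4 FPKM at pH 7.4 (-1.98 ± 0.11). CD68, a lysosomal protein abundant in macrophages, rose, with 2.65, 6.29, 8.65 and 5.64 FPKM at pH 6.3, and at pH 7.4 it was listed at about 0 at 40 h and at 0.324 to 0.83 FPKM at the other hours. The 7 endothelial markers summed to 0.798 to 1.70 FPKM at pH 6.3 and 1.49 to 2.27 FPKM at pH 7.4, and none passed the filter. Their part in the results was not tested. In such bulk samples, fewer cells in a state and less RNA per cell cannot be told apart.

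The late acid effect was set against 28 to 36 h of the same plate set in 1 fit of all 26 libraries. Of 11838 genes none passed in either direction with limma, with 1574 at an unadjusted p under 0.05 (1129 more positive and 445 more negative at 40 to 52 h). These unadjusted counts depended on processing, with 386 and 474 under GC correction. They were 65 and 128 without the 44 and 48 h pairs, and 140 and 136 without the 28 h pair. The pH 7.4 library of 28 h had a GC correlation of 0.63 with its deviation from the mean of the 26 libraries. In simulated data this comparison recovered 38% of changes of 1 and 78% of changes of 2 on the log2 scale. A gene that did not pass may thus still differ between these windows. The window medians of the lists were 1.78 at 40 to 52 h and 1.23 at 28 to 36 h for ATF4 targets, -0.86 and -0.89 for replication genes, and 0.23 and 0.74 for mitotic genes. The core clock list stood at 0.82 at 40 to 52 h and at -0.10 at 28 to 36 h. For NR1D1 the acid effect was 2.19 at 40 to 52 h and -0.11 at 28 to 36 h, and for ARNTL -0.87 and 0.72, differences that did not pass (limma adjusted p = 0.36 for both).

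Against the first day, 4 to 24 h, the acid effect had moved. It was more positive at 40 to 52 h in 1103 genes (9.32%) and more negative in 724 (6.12%), with a median difference of 0.12. The first day came from the second set of plates, so plate set and window cannot be told apart. The split depended on scaling: 60.4% of these calls were more positive, against 46.7% under quantile normalization, 46.2% under upper-quartile scaling, 53.3% with scaling without mitochondrial DNA and 48.3% under GC correction. Without the pairs at 8, 12, 20, 28, 44 and 48 h, chosen for low depth or a GC trend in their libraries, no gene passed with limma, with 1002 more positive and 820 more negative genes at an unadjusted p under 0.05.

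INHBE, a stress-responsive activin subunit, shows the kind of gene involved. Its means were 9.78 FPKM at pH 6.3 and 0.270 FPKM at pH 7.4 at 40 to 52 h, and 0.852 and 1.15 FPKM in these media at 4 to 24 h, and its acid effect was 3.25 ± 0.29 more positive late (limma adjusted p = 5.8e-05). The enzyme gene AKR1C1, which has close copies, went by 3.04 ± 0.40 in the same direction, C8orf4 by 3.30 ± 0.59 and the small GTPase gene RRAD by 2.95 ± 0.45. SAA2 and SAA1 differed by 3.88 ± 0.64 and 3.71 ± 0.70. CXCL14 had means of 6.16 FPKM at pH 6.3 and 89.9 FPKM at pH 7.4 at 40 to 52 h, and 64.0 and 67.9 FPKM at 4 to 24 h, an effect that was more negative late by 3.49 on the log2 scale (-3.49 ± 0.44, limma adjusted p = 0.00049). FABP7 (-2.69 ± 0.39), FMNL2 (-2.65 ± 0.45), PXDN (-2.42 ± 0.28), SDPR (-2.41 ± 0.38) and the cadherin CDH12 (-2.38 ± 0.51) moved the same way. None of these 12 genes passed without the 6 pairs named above, a refit with fewer pairs. There the more positive of them still differed by 2.65 to 3.37 and the more negative by -2.04 to -3.18. Why their calls were lost was not tested. TXNIP was already high on the first day, where it averaged 163 FPKM at pH 6.3, against 4.56 FPKM at pH 7.4. Its late change of 1.10 ± 0.39 did not pass (limma adjusted p = 0.066).

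Counts of genes past this test differed between lists. The lists were chosen with earlier results of these data known, so their counts are a description. No gene of any list passed without the 6 pairs named above. The acid effect was more positive late in 17 of 32 ATF4 targets, 13 of 20 aminoacyl-tRNA synthetases, 13 of 31 proteasome genes and 7 of 18 chemokine and NF-kB feedback genes, against 9.32% of all genes. It was more negative in 6 of 14 heat shock genes, 10 of 46 lysosome, V-ATPase and autophagy genes and 8 of 20 YAP/TEAD targets, against 6.12% of all genes. None of 25 p53 targets and none of 13 mitochondrial DNA genes passed this test. Leaving out the 44 h pair left 490 genes more positive and 386 more negative over the whole table, without the 48 h pair 596 and 478 passed and without the 52 h pair 729 and 442.

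**Figure D5:**
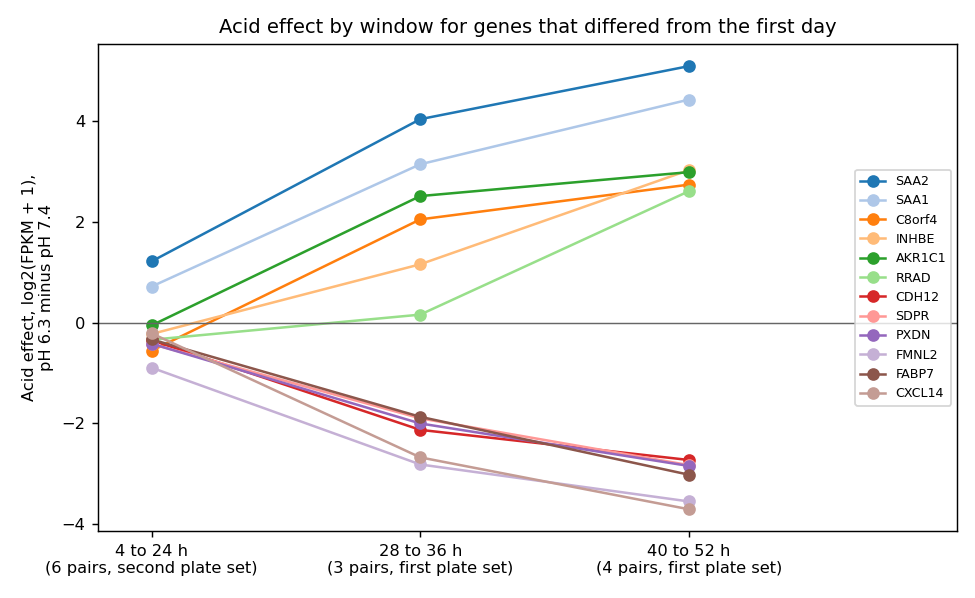
Acid effect (log2, pH 6.3 minus pH 7.4, y axis) in the windows 4 to 24, 28 to 36 and 40 to 52 h (x axis) for the 12 genes named for the difference from the first day. SAA2 and SAA1 reach 5.09 and 4.43 at 40 to 52 h, and CXCL14 reaches -3.70.

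Within the window no gene showed a linear trend of the acid effect over the 4 hours at a limma adjusted p under 0.05, and 128 of 11822 were at an unadjusted p under 0.05 (68 upward and 60 downward). Without the 48 h pair 3 genes passed upward and 3 downward. Without the 52 h pair 2518 passed upward and 591 downward, on 1 residual degree of freedom. At the level of single values, DDIT3 was highest and CDK1 and ACTB lowest in the acid library of 52 h.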

How the data were processed

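RNA of U2OS cells was sequenced at 26 points, 1 library each, and the 8 at 40 to 52 h are compared here. The authors deposited 1 table of FPKM values; per the submitters' processing notes they used STAR, Cufflinks and hg38, with versions and strand setting not given in the sources used here. No counts were given. Depths (62.7 to 108 M fragments) were estimated from the steps of low FPKM values in 1831 single-transcript genes, of which 95.1% to 97.9% came out within 0.1 of a whole number, and they limit the precision of low values.

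Genes averaging 1 FPKM or more were tested on log2(FPKM + 1) by limma (version 3.58.1, R version 4.3.3, moderated with a trend in the mean), two-sided, with hour as a block and a Benjamini-Hochberg adjusted p under 0.05. Symbols were matched to GENCODE 29 for 19545 of 19806 rows. Differences between windows were contrasts of acid effects in a fit of all 26 libraries. The block follows the labels, by which both media of an hour were harvested together; deviations of same-hour libraries correlated at -0.21, -0.18, -0.60 and 0.10, so the data themselves show no such pairing. The fits were tested on simulated data.

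The text names up to 12 genes a direction by size of change (same direction at 4 of 4 hours, at least 5 FPKM in the higher medium), up to 2 a direction from each list, up to 6 a direction for each window difference and a set of genes of interest. Genes named only for a promoter match, MLXIP and MARS were chosen after their values were seen. Members and lists were chosen with earlier results of these data known. Of the 171 named genes with coordinates, 78 overlap another annotated gene. RefSeq promoters (GRCh38.p14) matched 82.5% of the genes tested. Alternatives were pseudocount, filter, scaling, GC correction, block, left-out pairs and a fit of all 26 libraries.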

Additional observations from a re-analysis of the deposited data

Results flagged for a closer look

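In 15 of 352 groups of 4 libraries tested, 1 library stood apart from the other 3 by Dixon's criterion, which chance alone gives in about 1 of 20 groups. At pH 6.3 the 40 h library was lowest for NPRL2 (114 FPKM), ATP6V0B (138 FPKM), JUN (4.21 FPKM) and ZNF598 (11.9 FPKM), and highest for HMGA2 (32.9 FPKM) and LUM (47 FPKM). At pH 7.4 the 52 h library was highest for NCAM1 (28.4 FPKM), NR1D1 (9.48 FPKM), AURKA (67.6 FPKM), AXL (31.8 FPKM) and UPP1 (11.4 FPKM). The 48 h library at pH 7.4 was highest for F13A1 (34.4 FPKM) and LCP1 (39.8 FPKM), the 44 h library lowest for ATP5G3 (205 FPKM) and the 40 h library lowest for ZNF114 (26.5 FPKM).

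The acid effect differed between 40 to 52 h and 4 to 24 h in the test of the difference itself, more positive late in 1103 genes and more negative in 724. Among those named it was more positive for SAA2 (3.88), SAA1 (3.71), C8orf4 (3.30), INHBE (3.25), AKR1C1 (3.04) and RRAD (2.95). It was more negative for CXCL14 (-3.49), FABP7 (-2.69), FMNL2 (-2.65), PXDN (-2.42), SDPR (-2.41) and CDH12 (-2.38), all on the log2 scale. The plate set and the window cannot be told apart.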

How the results depend on the processing

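For the acid effect at 40 to 52 h, the counts of higher and lower genes stayed within 1.5 times of 3044 and 3738 under every alternative tried, with 2062 to 2794 higher and 2699 to 3694 lower when 1 pair was left out. Of 168 named genes, 21 changed their call in at least 1 alternative and none changed direction with a call.

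Against 28 to 36 h, the fit with no replicate block called 1 gene in each direction, and leaving out 1 pair gave 0 to 2 more positive and 0 more negative genes. Against 4 to 24 h, the more negative genes numbered 1248 under GC correction and 1494 under no replicate block with GC correction. Without the 44 and 48 h pairs 135 were more positive and 146 more negative, and without the pairs at 8, 12, 20, 28, 44 and 48 h there were 0 and 0. All 12 genes named for this difference lost their call without those 6 pairs, at differences of 2.65 to 3.37 and -2.04 to -3.18. Leaving out 1 pair gave 490 to 1412 more positive and 386 to 909 more negative genes. The hourly trend had 0 to 2518 upward and 0 to 591 downward genes when 1 pair was left out. The cause of these changes was not tested. The block changed no count of the acid effect at 40 to 52 h by over 1.5 times (3439 higher and 4137 lower with no replicate block).

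One library per pH and hour, unstated strand use and the GC trend of 2 hours limit single values, and low FPKM values rest on few fragments.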

Other observations

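Other gene groups changed on both sides at 40 to 52 h, as did all genes tested (25.7% higher and 31.6% lower). Of 21 NRF2 and pentose phosphate genes 7 rose and 3 fell, with 5 lower under scaling without mitochondrial DNA and 8 lower without the 44 and 48 h pairs. NQO1, a quinone reductase, had 25.8, 20.7, 19.4 and 16.9 FPKM at pH 6.3, against 73.6, 70, 67.9 and 63.3 FPKM at pH 7.4 (-1.70 ± 0.10), whereas AKR1C1 rose by 2.99 ± 0.14. Of 20 YAP/TEAD targets 8 rose and 5 fell. The matricellular gene CYR61 (CCN1) had 193, 199, 193 and 169 FPKM at pH 6.3, against 55.1, 56.6, 60.6 and 70.1 FPKM at pH 7.4 (1.62 ± 0.11), and the receptor kinase gene AXL fell by 1.33 ± 0.17.

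Of 31 proteasome genes 12 rose and 9 fell, or 20 rose under GC correction and 4 fell without the 44 h pair. The base subunit gene PSMC4 rose by 1.82 ± 0.16, and PSMA4, of the core particle, fell by 0.83 ± 0.10. Of 26 interferon-induced and antigen presentation genes 7 rose (26.9%) and 8 fell (30.8%), near the shares over all genes, or 4 rose without the 44 h pair. USP18, which removes ISG15, rose by 1.65 ± 0.17, and IFIT1 differed by -1.09 ± 0.14, a call that was lost in the fit of all 26 libraries. Among 7 oncofetal genes, HMGA2 fell by 1.39 ± 0.14 and the growth factor gene IGF2 rose by 1.55 ± 0.17.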
